A study of Rattus norvegicus with 6 samples.

Results

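The fibrous matrix was followed through 8 genes in neonatal rat ventricular cardiac fibroblasts: Col1a1, Col1a2, Col3a1, Fn1, Sparc, Lox, Dcn and Lum. They were chosen by Ensembl rat gene ID, by a rule that uses no measured value, though with earlier results of these data known. All 8 are among the 27108 genes of the count table. RNA was sequenced after 48 h on glass coated with fibronectin alone (UT, 3 libraries) or on glass coated with fibronectin and fibrils of transthyretin (TTR, 3 libraries). Fibronectin was thus under the cells in both groups. Transthyretin is a carrier protein of plasma that forms amyloid fibrils in the heart in transthyretin amyloidosis, and the study asks how these fibroblasts respond to the fibrils. The labels do not say which animals or isolations the replicates came from, or where the transthyretin came from, so every p-value here rests on the spread among these libraries, which may be technical.

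Cardiac fibroblasts build and remodel the collagen network of the heart wall. Type I collagen, assembled from the chains encoded by Col1a1 and Col1a2, and type III collagen, encoded by Col3a1, are its main fibrils. Fibronectin, the product of Fn1, is a glycoprotein that cells lay down early and on which collagen assembles. Sparc encodes a collagen-binding matricellular protein, and Lox encodes lysyl oxidase, the enzyme that starts the covalent cross-linking of collagen and elastin. Dcn and Lum encode decorin and lumican, small leucine-rich proteoglycans that bind collagen fibrils and regulate their growth and spacing. The RefSeq annotation of the rat assembly GRCr8 places Dcn and Lum side by side, with 0 genes starting between them.

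The library totals ran from 6574199 to 11774729 counts, the highest in TTR replicate 1. In a chi-square comparison of all pairs of libraries the statistic was at least 5.51 per degree of freedom, so no pair agreed within sampling noise. The 3 closest pairs were each of 1 UT and 1 TTR library: UT replicate 3 with TTR replicate 1 at 5.51, UT replicate 2 with TTR replicate 2 at 5.69 and UT replicate 1 with TTR replicate 3 at 7.41, while the closest pair on the same substrate was at 8.78. Every pair of libraries on the same substrate thus differed more than these 3 pairs did, and it is the spread within a substrate on which the edgeR test rests. The names of the 8 genes come from the ID list itself, since 0 of the count table's IDs have a symbol in the RefSeq table used here. For the same reason no other matrix genes and no markers of fibroblasts or of other heart cells could be matched to rows, and the labelled cell type was checked only through these genes. Col1a1, Col3a1, Fn1 and Sparc each took between 0.228% and 1.08% of all counts in every library. Lox took between 0.0617% and 0.0733%, and Dcn, Lum and the row given for Col1a2 each took at most 0.00328%. These shares alone do not settle the cell type. The measurements are of bulk RNA, in which fewer cells of a type and less RNA per cell cannot be told apart.

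In an unpaired comparison of the 3 TTR with the 3 UT libraries, no difference beyond the spread between libraries was detected for any of the 8 genes. The labels give no pairing of libraries across the substrates other than the replicate numbers. All 8 passed the filter on low counts. By the edgeR quasi-likelihood test, 0 of 8 passed an adjusted p of 0.05, and 0 of 8 had an unadjusted p under 0.05. Among all 12049 tested genes 0.0083% were called and 2.37% had an unadjusted p under 0.05. That last share is below the nominal rate of 0.05, so the unpaired test may be conservative here, for a reason that was not tested. The lack of calls is therefore not read as evidence of no difference. DESeq2 likewise called 0 of the 8, with 0.266% of its tested genes called. The UT and TTR libraries overlapped for all 8 genes, while 3.75% of tested genes had every TTR library above every UT library and 3.1% had every TTR library below. The fitted log2 fold, TTR minus UT, was above 0 for 5 genes and below 0 for 3. Its median was 0.058 over the 8 genes and -0.0038 over all tested genes, and the median size regardless of sign was 0.075 against 0.099. The adjusted p was 0.999 for each of the 8 genes in the edgeR test with Benjamini-Hochberg adjustment over all tested genes.

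The precision of these values bounds the difference between the 2 groups of libraries. In the fit of all 6 libraries, the 95% intervals of all 8 genes lay inside a 2-fold change in either direction. For Col3a1, Fn1, Sparc, Lox and the row given for Col1a2, 5 of the 8, the interval also lay inside 1.5-fold. The Col1a2 row held few reads, and its interval is not read as a bound on the second type I chain. The intervals of Col1a1, Dcn and Lum were wider and reached 1.56-fold, 1.69-fold and 1.83-fold on the side of higher TTR values. These bounds were not computed with a library left out. The log2 difference of Lum was then as far as -0.42 (SE 0.32) without TTR replicate 2 and 0.41 (SE 0.37) without UT replicate 2.

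**Figure D1:**
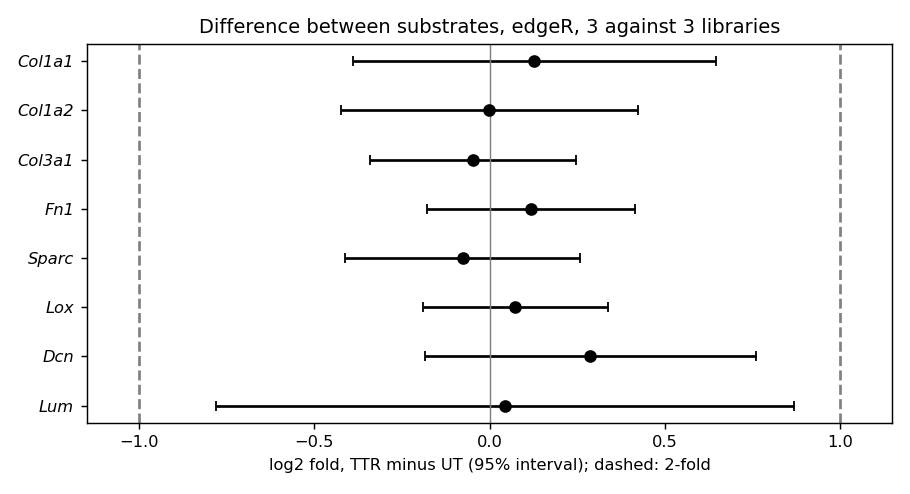
Fitted log2 fold, TTR minus UT, of the 8 genes (horizontal axis) with 95% intervals from the edgeR fit of 3 against 3 libraries; dashed lines mark a 2-fold change. All 8 intervals cross 0 and none reaches a dashed line, with the narrowest for Lox and the widest for Lum.

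Among the fibrillar collagens, Col1a1 (ENSRNOG00000003897) carried the most counts and the widest spread. Levels are given as CPM, counts scaled to a common library size with TMM factors, always in the order of replicates 1, 2 and 3. Those of Col1a1 were 10594, 5983 and 6824 CPM on UT and 7655, 7271 and 10641 CPM on TTR. UT replicate 1 and TTR replicate 3 were high, and the other 4 libraries lay well below them on both substrates. The mean ± SD of 3 libraries was 7800 ± 2456 CPM for UT and 8522 ± 1845 CPM for TTR, a fold of 1.09 (95% interval 0.763 to 1.56) and a log2 difference of 0.13 (SE 0.23). The sign of that difference changed with the libraries used, since it was -0.034 without UT replicate 2 and -0.068 without TTR replicate 3. It was 0.42 without UT replicate 1, still with no call. Leaving out a library also breaks up its closest pair across the substrates. Within the 3 closest pairs, Col1a1 was at 6824 CPM on UT and 7655 on TTR, 5983 and 7271, and 10594 and 10641. Dcn was likewise higher on TTR in each of these pairs, and Sparc was lower in each. For Col3a1, Fn1, Lox, Lum and the Col1a2 row the direction differed between the pairs. The pairs were found from the same counts, and a paired difference was not tested for any gene.

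Col3a1 (ENSRNOG00000003357) was steadier. It stood at 2683, 2351 and 2717 CPM on UT, and the TTR libraries had 2861, 2389 and 2251 CPM. The highest and the lowest of the 6 values were both on TTR. The log2 difference was -0.047 (SE 0.13), with a fold interval of 0.790 to 1.19, and it was 0.019 without TTR replicate 3. Within a library, Col1a1 had between 2.51 and 4.73 counts for each count of Col3a1, without correction for transcript length. This proportion was 3.95, 2.54 and 2.51 on UT and 2.68, 3.04 and 4.73 on TTR, so that the libraries high in Col1a1 were also those with the most Col1a1 relative to Col3a1. The log2 ratio of Col3a1 to Col1a1 was -1.55 ± 0.37 on UT and -1.76 ± 0.43 on TTR (SD, n = 3, two-sided exact permutation p = 0.5, adjusted p = 0.6 over 2 ratios). With 3 against 3 libraries the exact permutation test cannot go below p = 0.1. The difference in this ratio, -0.20, was 0.040 without TTR replicate 3.

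The row given for Col1a2, ENSRNOG00000011292, held very few reads. The UT libraries had 85, 68 and 66 counts and the TTR libraries 99, 83 and 77, or 11.6, 9.87 and 9.77 CPM against 8.53, 11.4 and 11.5 CPM. Col1a1 had between 606 and 922 counts for each count of this row, again without correction for length, although both genes encode chains of the same collagen. The pairing of this ID with the symbol was not checked by any table used here, and the row is therefore not read as the level of the second type I chain. Its log2 difference was -0.00055 (SE 0.19), with a fold interval of 0.746 to 1.34. The log2 ratio of Col1a1 to this row was 9.51 ± 0.30 on UT and 9.66 ± 0.29 on TTR (SD, n = 3, two-sided exact permutation p = 0.6, adjusted p = 0.6).

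**Figure D2:**
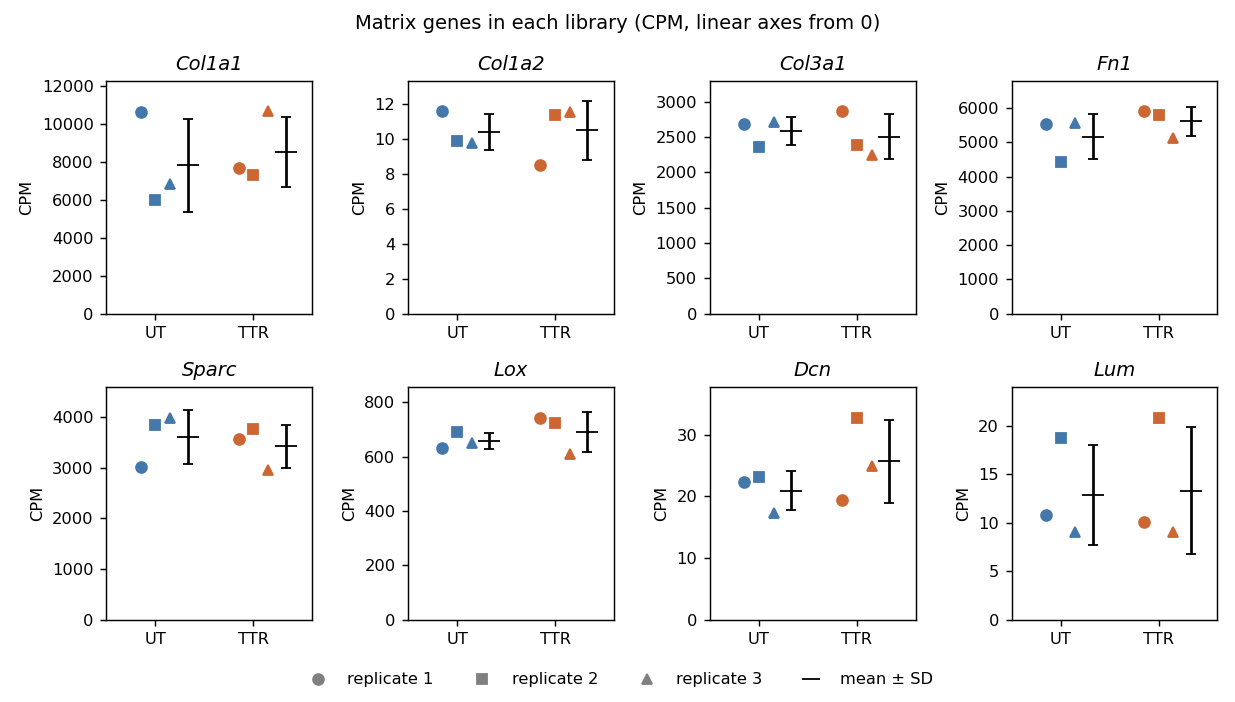
CPM of each gene (vertical axes, linear from 0, one panel a gene) in the 3 UT and 3 TTR libraries, with replicates as symbols and the mean ± SD as black bars. The groups overlap in all 8 panels; the Col1a2 panel shows the row ENSRNOG00000011292, at 8.53 to 11.6 CPM.

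The transcript of fibronectin overlapped between the coatings. Fn1 (ENSRNOG00000014288) stood at 5534, 4419 and 5557 CPM on UT and at 5908, 5791 and 5142 CPM on TTR. UT replicate 2 was the lowest, and the 5 other libraries lay close together. The mean ± SD of 3 libraries was 5170 ± 650.4 CPM for UT and 5614 ± 413 CPM for TTR, with a fold of 1.09 (95% interval 0.884 to 1.33) and a log2 difference of 0.12 (SE 0.13). Without UT replicate 2 that difference was 0.015.

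The genes for the collagen-binding protein Sparc and for the cross-linking enzyme also overlapped between groups. Sparc (ENSRNOG00000012840) stood at 3007, 3846 and 3993 CPM on UT and at 3570, 3760 and 2949 CPM on TTR. Its lowest values were in UT replicate 1 and TTR replicate 3, the same libraries in which Col1a1 was highest. The log2 difference of Sparc was -0.077 (SE 0.15), with a fold interval of 0.751 to 1.20, and it was 0.0021 without UT replicate 3 and 0.017 without TTR replicate 3. Within the closest pairs across the substrates, Sparc was at 3993 CPM on UT and 3570 on TTR, 3846 and 3760, and 3007 and 2949. A paired difference of Sparc was not tested. Lox (ENSRNOG00000014426) was the steadiest of the 8 genes, at 632.5, 690.3 and 651.5 CPM on UT and 743.7, 724.6 and 607.9 CPM on TTR. Its highest library was 1.22 times its lowest. The log2 difference of Lox was 0.073 (SE 0.12), a fold of 1.05 with an interval of 0.876 to 1.26.

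The proteoglycan genes Dcn and Lum had at most 239 counts in a library, and the highest of their 6 CPM values was 1.89 and 2.32 times the lowest, against 1.78 for Col1a1. By within-group SD of log2 CPM, Dcn at 0.31 was below Col1a1 at 0.37. Dcn (ENSRNOG00000004554) had 164, 159 and 117 counts on UT and 225, 239 and 166 counts on TTR, or 22.3, 23.1 and 17.3 CPM against 19.4, 32.8 and 24.9 CPM. TTR replicate 2 was the highest, and TTR replicate 1 lay below 2 of the UT libraries. Dcn had the largest fitted change of the 8, a log2 difference of 0.29 (SE 0.21) with an unadjusted p of 0.202 and an adjusted p of 0.999 by edgeR. Without TTR replicate 2 the difference was 0.075 and without TTR replicate 1 it was 0.47 (unadjusted p = 0.0403 and adjusted p = 1.00 by edgeR), with no call in either case. Within the closest pairs across the substrates, Dcn was at 17.3 CPM on UT and 19.4 on TTR, 23.1 and 32.8, and 22.3 and 24.9. A paired difference of Dcn was not tested.

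Lum (ENSRNOG00000004610), the neighbour of Dcn, showed the largest spread. Its counts were 79, 129 and 61 on UT and 117, 152 and 60 on TTR, or 10.8, 18.7 and 9.03 CPM against 10.1, 20.8 and 8.99 CPM. UT replicate 2 and TTR replicate 2 were high and the other 4 libraries lay close to each other, whatever the substrate. The log2 difference was 0.044 (SE 0.37), with the widest interval of the 8 genes, from 0.582-fold to 1.83-fold. Its sign turned with the libraries used, from -0.42 without TTR replicate 2 to 0.41 without UT replicate 2; it was -0.065 without UT replicate 1 and -0.15 without UT replicate 3.

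How far this spread exceeds what counting alone would give differed between the genes. For Col1a1 the coefficient of variation between the libraries of a group was 31.5% on UT and 21.6% on TTR, where counting error alone would give 0.426% and 0.375%. For Lum it was 40.3% and 49.2%, against 10.6% and 9.55% from counting. For the row ENSRNOG00000011292 it was 9.76% and 16.1% against 11.7% and 10.8%, under counting error on UT and above it on TTR. A coefficient of variation from 3 libraries is itself uncertain, so this is not read as a difference in spread between the substrates. The within-group SD of log2 CPM lay at percentile 94.6 of all tested genes for Lum and at percentile 82.3 for Col1a1. For Lox it lay at percentile 18.1. Over the 8 genes the median of this SD was 0.20, close to the 0.21 of all tested genes.

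**Figure D3:**
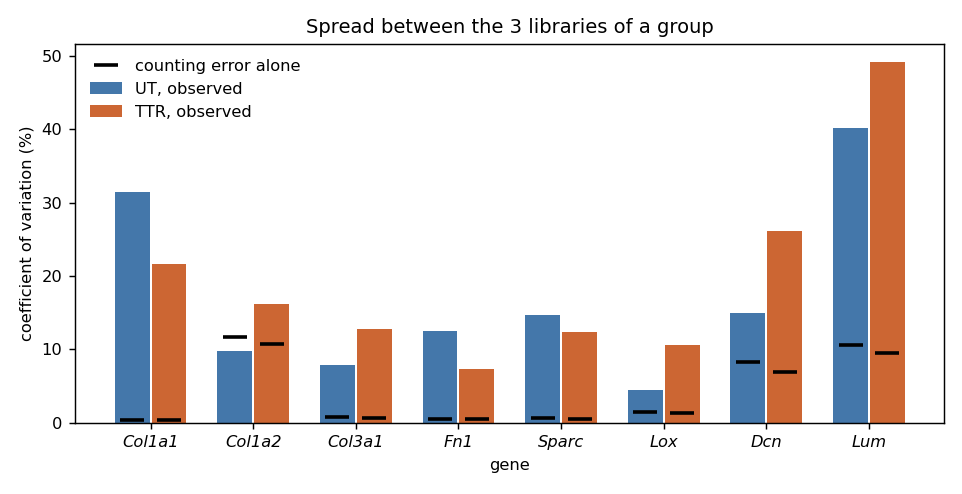
Coefficient of variation between the 3 libraries of a group (bars, vertical axis in percent) for each gene on UT and TTR, with the value from counting error alone as black marks. Lum and Col1a1 have the tallest bars on UT, at 40.3% and 31.5%, and in the Col1a2 row the UT bar lies under its mark.

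The 8 genes did not vary as one block. Each gene was compared with its own mean over the 6 libraries on the log2 CPM scale. The number of genes above that mean was between 3 and 6 of 8 in every library, the 6 being in TTR replicate 2. Of the 28 pairs of genes, 0 lay on the same side in all 6 libraries and 2 lay on opposite sides in all 6, Col1a1 with Sparc and Col3a1 with Dcn. In UT replicate 1 and TTR replicate 3, Col1a1 was 0.41 and 0.42 above its mean, and Sparc was at -0.22 and -0.25 from its own. A further 5 pairs lay on the same side in 5 of 6 libraries: Col1a1 with the Col1a2 row, Col3a1 with Fn1, Sparc with Lox, Lox with Lum, and Dcn with Lum. These pairs were picked after their values were seen and are a description of 6 libraries. The libraries high in Col1a1, UT replicate 1 and TTR replicate 3, also resembled each other across genes: their deviations from the mean of their own group had a correlation of 0.52 over all tested genes, which are not independent replicates. For the libraries numbered 2, in which Lum was high, it was 0.44, and for UT replicate 3 with TTR replicate 1 it was 0.58, the highest of all. These 3 pairs take up all 6 libraries, and the other 6 combinations of a UT with a TTR library were at -0.094 or below. Deviations from a group mean cancel within the group, so positive correlations in some combinations force negative ones in others. The negative values are therefore no separate evidence of pairing. What the libraries of a pair share is not in the labels, and its part in the spread of the 8 genes was not tested.

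**Figure D4:**
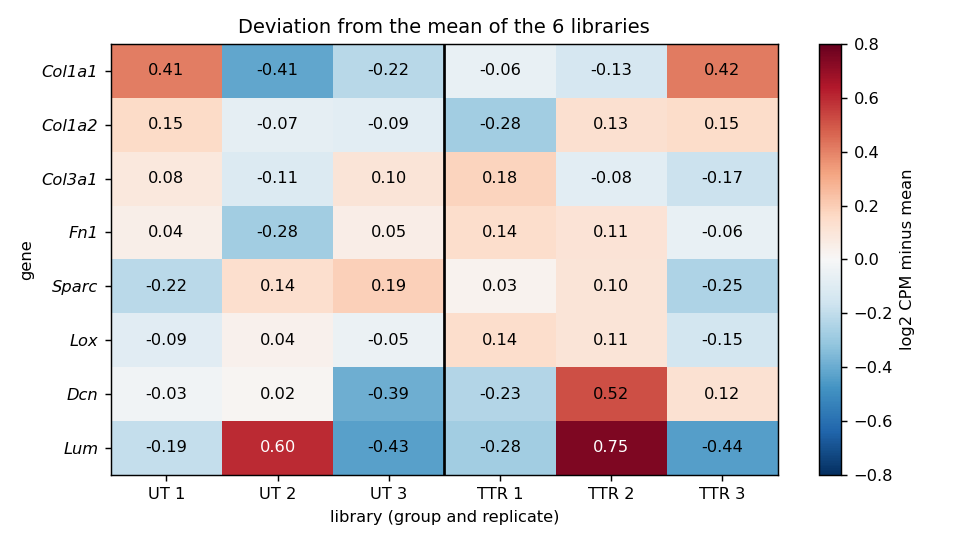
Deviation of log2 CPM from each gene's mean over the 6 libraries (colour and printed value; genes in rows, libraries in columns, UT left of the line and TTR right). Col1a1 is high in UT replicate 1 and TTR replicate 3 (0.41 and 0.42), Sparc is low in the same libraries (-0.22 and -0.25), and Lum is high in both replicates numbered 2 (0.60 and 0.75).

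Summed over the 8 genes, 2.27%, 1.73% and 1.94% of all counts fell on them on UT and 2.05%, 2.00% and 2.20% on TTR. The lowest and the highest value were both on UT. The means were 1.98% ± 0.275 on UT and 2.08% ± 0.101 on TTR (SD, n = 3, two-sided exact permutation p = 0.6), a difference of 0.101 percentage points that became -0.0238 without UT replicate 2. Col1a1 made up between 34.5% and 49.2% of this sum and Fn1 between 23.8% and 29.0%. Dcn, Lum and the Col1a2 row each held at most 0.164% of it.

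The mean profile of the 8 genes over the 6 libraries was nearly flat, because their deviations partly cancelled. It ran from -0.11 in UT replicate 3 to 0.19 in TTR replicate 2 on the log2 CPM scale. Each gene counted alike in it, and the largest deviations in TTR replicate 2 were those of the low-count genes Lum (0.75) and Dcn (0.52). The 2 other tested genes with the most similar profile were ENSRNOG00000030483 and ENSRNOG00000017561. Their centred log2 CPM differed from the mean profile by a root mean square of 0.0199 and 0.0224 over the 6 libraries. The table gives no symbol for either.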

How the data were processed

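The authors deposited raw whole-number counts per gene for 6 libraries, with no normalization, per the file headers. STAR, featureCounts, edgeR and the build rn6 are named without versions, per the submitters' processing notes. For the annotation, the strand setting and the handling of multi-mapping reads, the labels give nothing. The 12 lists of matrix genes and cell type markers (133 symbols) were not analysed here, because no row could be paired with a symbol. The members and lists were chosen with earlier results of these data known.

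Genes were filtered by filterByExpr (minimum count 10), scaled by TMM and tested with the edgeR 4.0.16 quasi-likelihood test (R 4.3.3), two-sided, group as the only term, with Benjamini-Hochberg adjustment over 12049 genes. Standard errors and 95% intervals came from the fold and the F statistic. Log2 CPM used a prior count of 2. Shares and ratios were compared by exact permutation over libraries. The named genes were the 8 members and the 2 genes of most similar profile. Alternatives were other scalings and filters, DESeq2 1.42.0, limma-voom (limma 3.58.1), a block for the replicate number, and leaving out each library. On simulated counts of 12049 genes for the TTR against UT comparison, edgeR found 65% of the 2-fold changes and 96% of the 4-fold changes and made 15 false calls. The simulated libraries were drawn independently, without the likeness seen between UT and TTR libraries, so these rates need not hold for the real ones.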

Additional observations from a re-analysis of the deposited data

How the results depend on the processing

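Over 14 alternatives for each of the 8 genes, 112 values in all, 0 passed the threshold, 97 kept their direction and 15 reversed. The lowest adjusted p among them was 0.978. Dcn, Fn1 and Lox kept their direction under every alternative run. The log2 fold of Col1a2 became 0.0069 with upper quartile factors, 0.0059 with library totals alone, 0.00097 with no low count filter and 0.00020 with the filter on 1 CPM (at least 3 libraries). That of Lum became -0.0046 with limma-voom. Leaving out 1 library moved the log2 fold of Col1a1 between -0.068 and 0.42, Col1a2 between -0.081 and 0.14, Col3a1 between -0.15 and 0.019, Sparc between -0.19 and 0.017 and Lum between -0.42 and 0.41. It moved the difference in the summed share between -0.0238 and 0.248 percentage points, and that in the log2 ratio of Col3a1 to Col1a1 between -0.42 and 0.040. The cause was not tested. Over all genes the count of calls was 1, against 37 with DESeq2, 36 with no low count filter, 3 with the 1 CPM filter and 1 to 9 with 1 library left out, the 9 without TTR replicate 1 and 2 without UT replicate 2. In the fit with a replicate block edgeR called 0 genes and 0 of the 8, and the log2 fold of Col1a1 was 0.15. The numbers did not pair the libraries, with correlations of deviations of -0.38, 0.44 and -0.40 for numbers 1, 2 and 3, and best agreement with the same number for number 2 alone. Counts were low for Dcn, Lum and the Col1a2 row, at 60 to 239 a library. For Dcn and Lum the coefficient of variation between libraries nevertheless lay above counting error in both groups. For the Col1a2 row it lay under counting error on UT and above it on TTR, a contrast that was not tested. How far depth limits the results for these genes was not tested.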
